A study of Macaca mulatta with 6 samples.

Results

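The genes described here are 10 components of activin and TGF-beta signalling, measured by RNA sequencing in 6 induced pluripotent stem cell (iPSC) lines of rhesus monkey. They were chosen by symbol: the ligand genes INHBA and TGFB1, the inhibitor FST, the receptors ACVR1B and ACVR2B, the signal transducers SMAD2 and SMAD3, the feedback inhibitors SMAD7 and SKIL, and the target gene TGFBI. Each symbol had 1 row among the 30246 gene rows of the deposited tables, and all 10 were among the 13685 rows that passed a minimum of 1 FPKM in 2 or more libraries. FPKM is fragments mapped to a transcript, scaled to its length and to the depth of the library, so that levels of different genes can be compared.

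The lines were reprogrammed from fibroblasts and fell into 3 groups with n = 2 libraries each: male naive, female naive and male primed. Naive lines grew in a conversion medium (label 6SM) with 15% serum replacement, N2 supplement, 4 ng/ml bFGF, 10 ng/ml human LIF and the kinase inhibitors CHIR99021 (GSK3, 3 µM), PD0325901 (MEK, 0.5 µM), SB203580 (p38, 10 µM) and SP600125 (JNK, 10 µM). Primed lines grew in a human embryonic stem cell medium (label hESM) with 20% serum replacement and bFGF. Feeder cells were taken away before RNA was extracted in every group. No primed female line was analysed here. The labels do not tie lines to donors or clones, so a p-value reflects only how much these lines varied.

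Activin, a dimer of INHBA subunits, and Nodal bind type II receptors such as ACVR2B, which recruit the type I receptor ACVR1B. TGF-beta uses its own receptor pair, and both routes end in phosphorylation of SMAD2 and SMAD3, which enter the nucleus with SMAD4. SMAD7 and SKIL are induced by the pathway and restrain it, SMAD7 at the receptor and SKIL, also called SnoN, on SMAD-bound DNA. Primed pluripotent cells are known for their reliance on activin or TGF-beta together with FGF.

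Effective fragments, the number of fragments that would give a value's deposited error bounds, summed to 1478692 and 1754857 in the male naive libraries and to between 7607125 and 10013491 in the other libraries. Depth and the male naive group therefore cannot be told apart, and low genes were measured least precisely there. Over all rows limma called 920 higher and 628 lower in naive than in primed lines, and upper-quartile scaling gave 684 and 930. For male naive against primed lines these counts were 543 and 195, or 372 and 390 with that scaling. For female against male naive lines they were 104 and 349, or 111 and 212 with that scaling, which also moved the median of all rows from -0.10 to 0.03 on the log2 scale. Of 10 pluripotent markers none was listed at 0 in any library, but the level of several moved with the groups. In naive against primed lines 6 of 10 were called higher and 0 lower, with a median log2 difference of 1.88. Their sums were 1310 to 2080 FPKM in naive and 628 and 583 in primed libraries, and NANOG lay between 28.7 and 95.9 FPKM in naive libraries and at 0.933 and 2.09 in primed 1 and primed 2.

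The feedback inhibitors SKIL and SMAD7 were higher in naive than in primed lines, while the receptors, SMAD2, SMAD3 and INHBA passed no threshold. Follistatin (FST), which binds and neutralises activin, was lower in female naive lines than in both male groups. In the comparison of all naive with primed lines, 2 of the 10 genes rose, 1 fell and 7 were not called at an adjusted p under 0.05 (limma on log2(FPKM + 1), Benjamini-Hochberg over all tested rows). Among all tested rows 11.3% were called, 6.72% higher and 4.59% lower. The median log2 difference of the 10 genes was -0.02, beside 0.03 for all tested rows. In 2 of the 10 the naive and primed libraries did not overlap, both of them higher in naive lines, beside 34.8% of all rows (18.9% higher and 15.9% lower).

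The separate comparisons share libraries and are given side by side. Male naive against primed lines gave 1 gene higher and none lower (SKIL; 2 of the 10 had an unadjusted p under 0.05 in limma), against 5.39% of all rows called, 3.97% higher and 1.42% lower. Female naive against primed lines gave 3 higher (TGFB1, SMAD7 and SKIL) and 1 lower (FST), against 11.0% of rows, 5.55% higher and 5.41% lower. Female against male naive lines gave FST as the only call, lower, against 3.31% of rows, 0.76% higher and 2.55% lower. Groups of 2 libraries often do not overlap: this held for 3 of the 10 genes in the male comparison with primed lines, all higher (56.4% of all rows, 34.8% higher and 21.6% lower). It held for 4 higher and 2 lower in the female comparison (59.0% of rows, 27.1% and 31.9%), and for 4 higher and 3 lower between the naive groups (57.0% of rows, 19.4% and 37.6%).

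**Figure D1:**
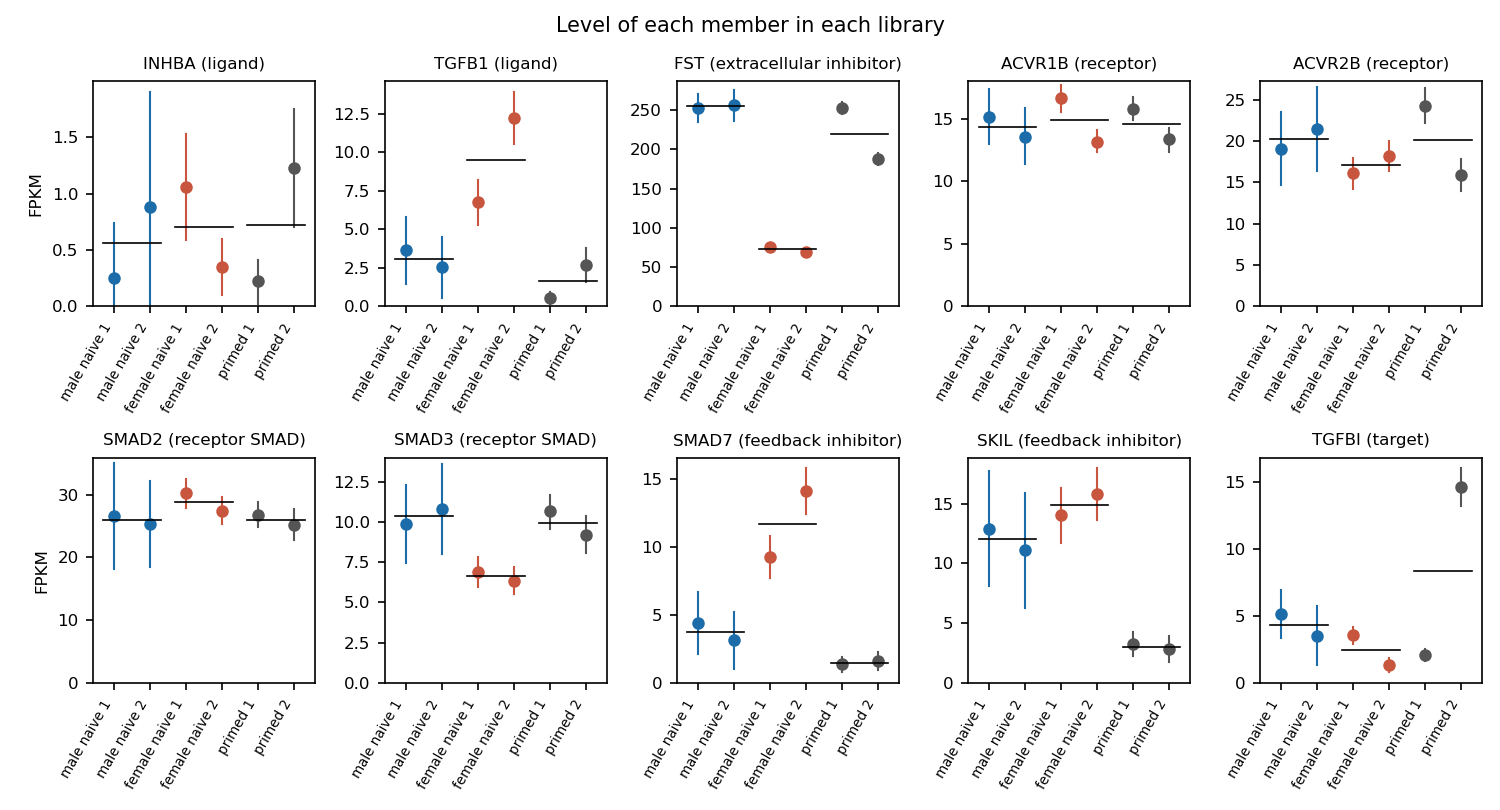
FPKM (vertical axis, from 0, a separate scale for each gene) of the 10 genes in the 6 libraries; points are libraries, vertical lines run between the deposited lower and upper bounds, and horizontal lines are group means over 2 libraries. SKIL was between 11.1 and 15.8 FPKM in the 4 naive libraries and at 3.22 and 2.81 in the primed ones, and FST was at 75.4 and 69.7 in female naive libraries against 188 to 256 in the others.

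INHBA, the activin A subunit (ENSMMUG00000014246, chromosome 3, 84626521 to 84640014 in the deposited tables, whose genome build is not given in the sources used here), was among the lowest of the tested genes. It was at 0.247 and 0.879 FPKM in male naive libraries, at 1.06 and 0.35 in the female naive libraries and at 0.219 and 1.23 in the primed libraries. No group stood apart, and the male naive values rested on 1 and 3 effective fragments. The naive minus primed difference of log2(FPKM + 1) was -0.05 (95% interval -0.96 to 0.87), so a change of nearly 1 unit on this scale was not excluded. With group means under 1 FPKM the added 1 compresses folds, so larger fold changes of FPKM were not excluded either. The SE was 0.38, and 0.91 with a pseudocount of 0.1. INHBA stood at the 2.5th to the 7.9th percentile of tested rows in the 6 libraries.

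TGFB1 (ENSMMUG00000008142, chromosome 19, 47723540 to 47747215), the gene of TGF-beta 1, was highest in female naive lines. It was at 3.63 and 2.52 FPKM in male naive libraries, at 6.74 and 12.2 in the female naive libraries and at 0.536 and 2.68 in the primed libraries. The female naive values lay above all 4 others, whereas male naive and primed values overlapped. Female naive lines exceeded primed lines by 2.09 on the log2 scale (SE 0.48, limma adjusted p = 0.0456), a 5.89-fold difference of mean FPKM (9.48 ± 3.88 against 1.61 ± 1.52, SD, n = 2). This call was lost in 11 of 20 alternative settings (adjusted p 0.0295 to 0.217 over all of them), among them the fits without primed 1 (log2 difference 1.46, adjusted p = 0.121) and without female naive 2 (1.70, adjusted p = 0.217). For naive of both sexes against primed lines the difference was 1.43 (95% interval 0.41 to 2.44, adjusted p = 0.0787), and it was 0.80 without primed 1 (adjusted p = 0.271) and 2.06 without primed 2 (adjusted p = 0.0485). Primed 1 and primed 2 rested on 6.8 and 23 effective fragments for this gene.

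FST (ENSMMUG00000004860, chromosome 6, 51141905 to 51147384) was the most abundant of the 10 genes in every library, at the 90.1st to the 97.7th percentile of tested rows. It was at 253 and 256 FPKM in male naive libraries, at 75.4 and 69.7 in the female naive libraries and at 253 and 188 in the primed libraries. The female naive libraries lay far below the other 4, and male naive 1 and primed 1 were nearly equal. Group means were 255 ± 2.01 FPKM for male naive lines, 72.6 ± 4.03 for female naive lines and 220 ± 45.9 for primed lines (SD, n = 2). At 683 to 4519 effective fragments per library, counting error was small beside these differences.

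FST fell by 1.80 on the log2 scale in female against male naive lines (SE 0.16, limma adjusted p = 0.00584). It fell by 1.57 in female naive against primed lines (SE 0.16, adjusted p = 0.00782). Without female naive 2 the latter was -1.52 (adjusted p = 0.0697). Male naive and primed lines did not differ beyond the threshold (log2 difference 0.23, 95% interval -0.17 to 0.62, adjusted p = 0.433). The order was therefore male naive and primed, not told apart, above female naive. The fall of 0.67 in naive of both sexes against primed lines (SE 0.14, adjusted p = 0.0354) averaged these unlike groups, and naive and primed libraries overlapped. The call of this fall was lost in 9 of 19 alternative settings. Among them were the fits without any 1 of the 4 naive libraries (log2 differences -0.65 to -0.7) or without primed 1 (-0.46). With all libraries kept it was lost with no filter (limma adjusted p = 0.0599), a prior without trend (0.0681), a replicate block (0.0554) and sex ignored (0.552). The fall against male naive lines was likewise lost without any 1 naive library, at log2 differences of -1.74 to -1.85 (adjusted p 0.0535 to 0.0801), where one group was left with a single library. Some markers of other cells moved with FST between the naive groups. Of 6 tested neural markers TUBB3, MAP2 and CRABP1 were called lower in female naive lines (median of the 6 log2 differences -1.41). Of 12 tested fibroblast markers VIM and ACTA2 were called lower (median -0.27, beside -0.1 for all tested rows). Of all tested rows 2.55% were called lower in this comparison. Fibroblast markers went both ways: THY1 (1.68), COL1A1 (1.34), S100A4 (1.32), POSTN (0.44) and LUM (0.14) were higher in female naive lines, none of them called. The part of such cells in the difference of FST was not tested.

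Neither receptor passed the threshold in any of the 4 comparisons. ACVR1B (ENSMMUG00000006200, chromosome 11, 49079161 to 49124657), the type I receptor ALK4 for activin and Nodal, was at 15.2 and 13.6 FPKM in male naive libraries, at 16.7 and 13.2 in the female naive libraries and at 15.8 and 13.4 in the primed libraries. Each group spanned nearly the same interval, and the highest library exceeded the lowest by a factor of 1.26. The naive minus primed log2 difference was 0.01 with a 95% interval of -0.39 to 0.41, and its sign turned with the scaling. ACVR2B (ENSMMUG00000018790, chromosome 2, 98051308 to 98057388), a type II receptor for activin, was at 19.1 and 21.5, 16.1 and 18.2, and 24.3 and 15.9 FPKM in the same order of groups. The 2 primed libraries bracketed all 4 naive ones, and the difference was -0.08 (95% interval -0.55 to 0.40). ACVR2B exceeded its relative ACVR2A by a factor of 2.46 to 4.73 in FPKM in every library.

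SMAD2 (ENSMMUG00000007816, chromosome 18, 40878797 to 40933624) was at 26.6 and 25.3 FPKM in male naive libraries, at 30.2 and 27.4 in the female naive libraries and at 26.8 and 25.2 in the primed libraries. It was the steadiest of the 10 genes, with a factor of 1.2 between its highest and lowest library. The naive minus primed log2 difference was 0.07, with a 95% interval of -0.23 to 0.36. Differences larger than 0.36 in either direction thus lay outside the interval, although its sign turned under upper-quartile scaling (-0.05) and quantile normalization (-0.03).

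SMAD3 (ENSMMUG00000015455, chromosome 7, 45636471 to 45762327), the close relative of SMAD2 that binds DNA directly, was at 9.89 and 10.8 FPKM in male naive libraries, at 6.89 and 6.36 in the female naive libraries and at 10.7 and 9.23 in the primed libraries. The female naive values lay below all 4 others. The log2 difference was -0.58 against male naive (SE 0.19, limma adjusted p = 0.153) and -0.52 against primed lines (SE 0.19, adjusted p = 0.121), and neither was called. In FPKM, SMAD2 exceeded SMAD3 by a factor of 4.38 and 4.32 in female naive libraries and by 2.34 to 2.73 in the other 4. Over the 6 libraries SMAD3 followed FST, with Pearson's r of 0.99 on log2(FPKM + 1), a description in which both genes share the same libraries and their depth.

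SMAD7 (ENSMMUG00000012770, chromosome 18, 41969766 to 41999106), which blocks the receptor SMADs at the type I receptor, rose in naive lines. It was at 4.40 and 3.13 FPKM in male naive libraries, at 9.24 and 14.1 in the female naive libraries and at 1.35 and 1.59 in the primed libraries. All 4 naive libraries lay above both primed ones, a separation of either sign seen in 34.8% of all tested rows, and female naive lay above male naive. SMAD7 rose by 1.64 on the log2 scale in naive against primed lines (SE 0.25, limma adjusted p = 0.0168), a 5.25-fold difference of mean FPKM. The rise was 2.33 in female naive lines (SE 0.28, adjusted p = 0.0103), and in male naive lines the difference was 0.94 (SE 0.28, adjusted p = 0.108), which was not called. Both comparisons use the same primed libraries. The difference between the naive groups was 1.4 (SE 0.28, adjusted p = 0.0596), and it passed the threshold with a pseudocount of 5 or with a minimum of 1 FPKM in all 6 libraries.

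The SMAD7 call in naive against primed lines was lost without male naive 1 (1.54, adjusted p = 0.0595), male naive 2 (1.73, adjusted p = 0.0514), female naive 2 (1.5, adjusted p = 0.0586) or primed 1 (1.56, adjusted p = 0.0792). In female naive against primed lines the SMAD7 call was lost without female naive 2 (2.05, adjusted p = 0.0802) or primed 1 (2.26, adjusted p = 0.0516). Its values rested on 15 and 9 effective fragments in the male naive libraries, 147 and 272 in the female naive libraries and 26 and 24 in the primed libraries.

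SKIL (ENSMMUG00000009271, chromosome 2, 116621734 to 116631265), a co-repressor that holds SMAD-bound genes silent and is itself an activin target, rose in naive lines of both sexes. It was at 12.9 and 11.1 FPKM in male naive libraries, at 14.0 and 15.8 in the female naive libraries and at 3.22 and 2.81 in the primed libraries. The 4 naive libraries lay together, and their lowest deposited lower bound (6.26) was above the highest upper bound of the primed libraries (4.23). Group means were 12.0 ± 1.27 FPKM for male naive lines, 14.9 ± 1.26 for female naive lines and 3.02 ± 0.292 for primed lines (SD, n = 2). SKIL rose by 1.84 in naive against primed lines on the log2 scale (SE 0.17, limma adjusted p = 0.00822), a 4.46-fold difference of mean FPKM, and stood higher in 4 of 4 naive libraries.

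The rise of SKIL was called in the separate comparisons too, at 1.69 for male naive (SE 0.19, adjusted p = 0.0101) and 1.98 for female naive against primed lines (SE 0.19, adjusted p = 0.00772). The male call was lost without male naive 1 (adjusted p = 0.0851) or male naive 2 (adjusted p = 0.081), and the female call without female naive 2 (adjusted p = 0.0675). The naive groups differed by 0.29 (95% interval -0.18 to 0.76, adjusted p = 0.441), so their order was not told apart. The naive against primed call held in all 19 alternative settings, with log2 differences of 1.2 to 2.11 and adjusted p of 0.00395 to 0.0423. In bulk RNA a change in the share of cells that express a gene and a change in RNA per cell cannot be told apart, for SKIL as for the other genes. SKIL moved from the 18.7th and the 23.3rd percentile of tested rows in primed libraries to between the 48.3rd and the 61st in naive ones. EOMES and KDR, 2 of 4 tested mesoderm markers, were called higher in naive lines, as SKIL and SMAD7 were. Of all tested rows 6.72% were called higher and 4.59% lower in naive lines. T (0.22) and MIXL1 (1.32) were not called. T was lower in female naive libraries (0.489 and 0.288 FPKM) than in primed ones (2.69 and 0.818). PDGFRA, not tested, was at 0.217 to 0.697 FPKM in naive and 0.845 and 0.736 in primed libraries. All 8 mesoderm markers summed to 14.3 to 32.8 FPKM in naive and to 5.08 and 3.94 in primed libraries. The 6 pluripotent markers called higher moved with SKIL and SMAD7 as well. SOX2 (-0.34) and SALL4 (-0.2) were lower in naive lines, and LIN28B (0.06) and EPCAM (1.73) higher, none of them called. Of 6 tested neural markers MAP2, NCAM1 and CRABP1 were called lower in naive lines and none higher. Without CRABP1 the neural sum was 186 to 303 FPKM in naive and 264 and 244 in primed libraries. Most of that sum was NES, at 166 to 263 FPKM in naive and 165 and 170 in primed libraries. NES was not tested because its row did not have a good status in every library, so its levels are unsure. The sum therefore says little about the other neural markers. NCAM1, for one, was at 4.58 to 9.02 FPKM in naive and 30.5 and 21.3 in primed libraries. The part of such cells in these differences was not tested.

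**Figure D2:**
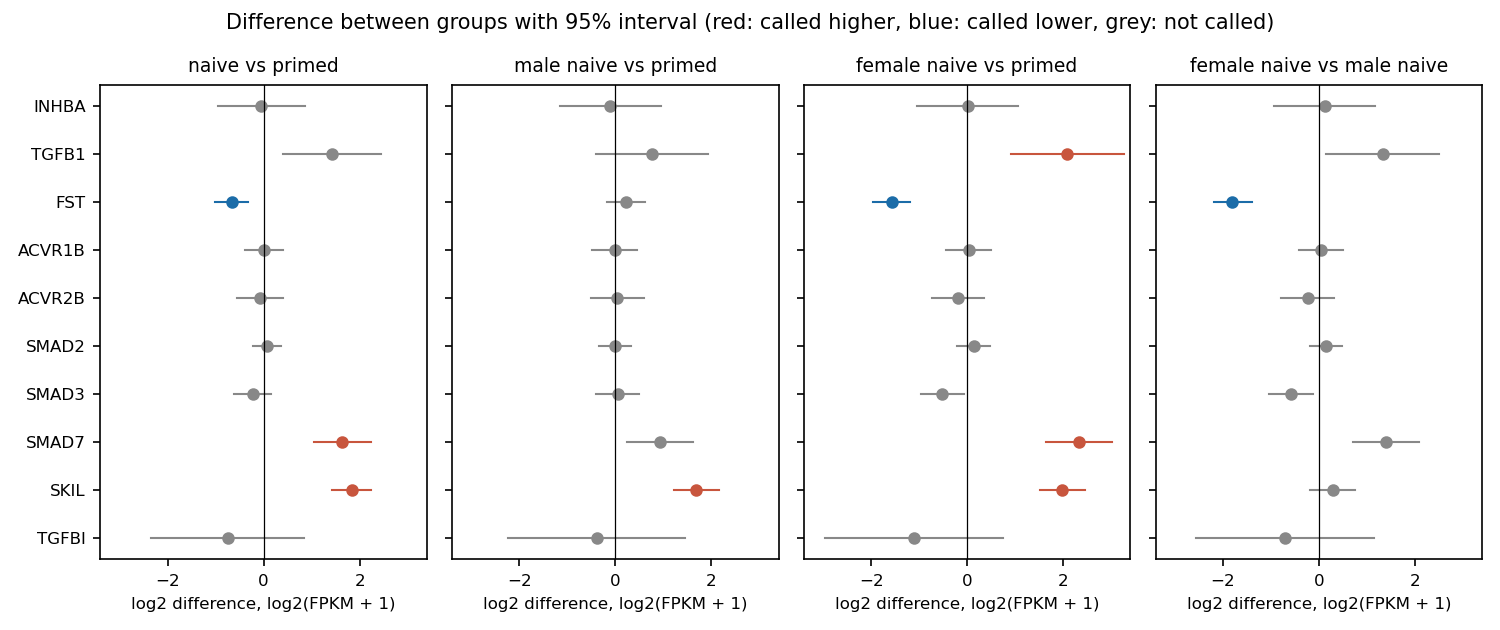
Log2 difference of log2(FPKM + 1) (horizontal axis) for each of the 10 genes (rows) in 4 comparisons; points are limma estimates, lines 95% intervals, red and blue mark genes called higher and lower, and grey marks genes not called. SKIL lay between 1.69 and 1.98 in all 3 comparisons with primed lines, and FST lay at -1.80 for female against male naive lines.

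TGFBI (ENSMMUG00000000332, chromosome 6, 132449425 to 132483495), a matrix protein named for its induction by TGF-beta, followed 1 library and not the groups. It was at 5.12 and 3.50 FPKM in male naive libraries, at 3.53 and 1.29 in the female naive libraries and at 2.05 and 14.6 in the primed libraries. Primed 2 was the highest of the 6 and primed 1 the next to lowest. The naive minus primed log2 difference was -0.75 (95% interval -2.35 to 0.85, limma adjusted p = 0.49), and it was 0.43 without primed 2 (adjusted p = 0.565). The deposited bounds of primed 2 (13.2 to 16.0) and primed 1 (1.59 to 2.51) did not meet.

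Some markers of fibroblasts stood high in the same library. Of 15 such markers with a row, 8 were highest in primed 2 and 12 were higher there than in primed 1. LUM, a matrix proteoglycan, was at 19.9 FPKM in primed 2, at 0.111 in primed 1 and between 0.0739 and 3.85 in naive libraries. The collagen gene COL3A1 was at 28.6 FPKM in primed 2, at 0.414 in primed 1 and between 4.64 and 7 in naive libraries. POSTN was at 13.0 FPKM in primed 2 and listed at 0 in primed 1, and male naive 1 and male naive 2 each listed DCN and FAP at 0. Summed over the list the markers gave 1250 and 1760 FPKM in primed libraries, 2340 and 2020 in the male naive libraries and 1380 and 2100 in the female naive libraries, with TAGLN alone at 512 to 1670. INHBA was also highest in primed 2, at 1.23 FPKM. The part of such cells in the levels of TGFBI and INHBA was not tested.

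**Figure D3:**
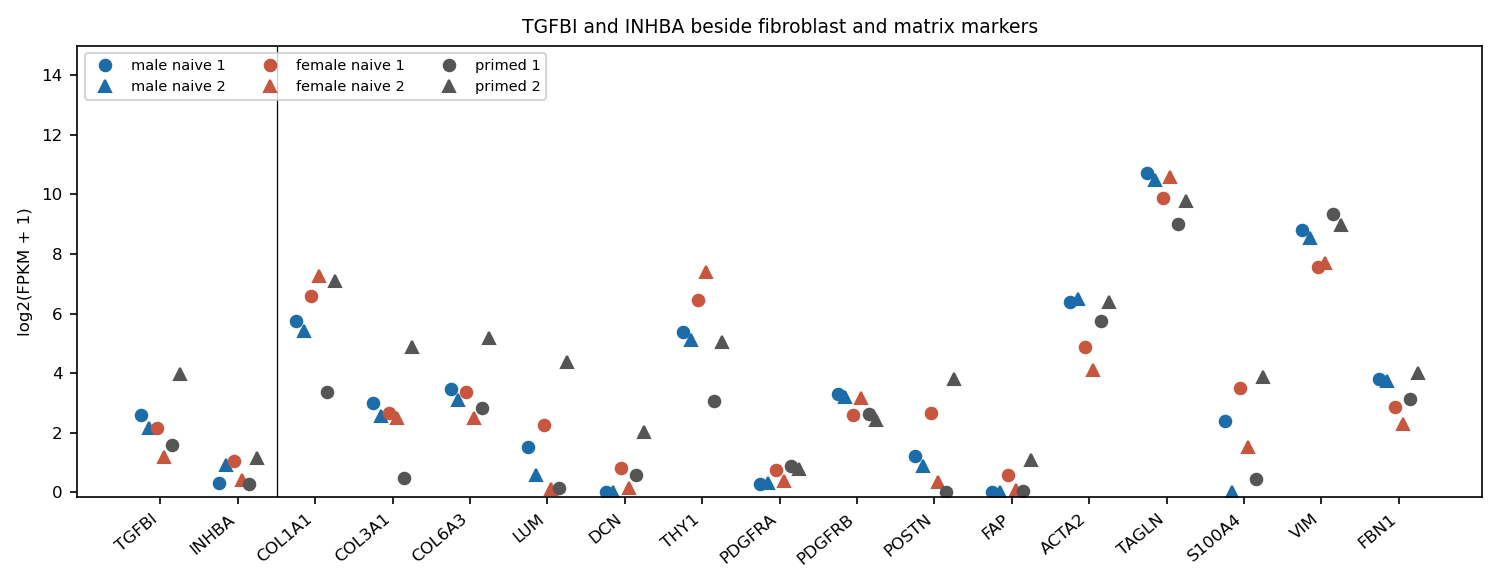
Log2(FPKM + 1) (vertical axis) of TGFBI and INHBA, left of the line, and of the 15 fibroblast and matrix markers with a row, right of it, in the 6 libraries; circles are first and triangles second libraries of a group, blue male naive, red female naive and grey primed. The grey triangle of primed 2 is the highest point for TGFBI, at 14.6 FPKM, and for 8 of the 15 markers. Other libraries were highest for COL1A1, THY1, PDGFRA, PDGFRB, ACTA2, TAGLN and VIM.

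Other genes of the pathway were followed through a list of 80 genes in 6 classes, of which 70 were tested. In naive against primed lines 12 of the 70 rose and 2 fell, with a median log2 difference of 0.33 beside 0.03 for all tested rows. Over all tested rows 11.3% were called, 6.72% higher and 4.59% lower, which is also the background for the counts by class below. The classes are small, so single calls move their shares much. Among target genes 4 of 19 rose and 1 fell, with a median of 1.03. PMEPA1, a membrane protein that sequesters receptor SMADs, was at 9.96 and 6.53 FPKM in male naive libraries, at 9.31 and 11.4 in the female naive libraries and at 1.16 and 1.49 in the primed libraries. Its naive libraries all lay above its primed ones, as in 18.9% of all tested rows. PMEPA1 rose by 2.13 on the log2 scale (SE 0.23, limma adjusted p = 0.00966). CTGF (2.71, SE 0.32) and THBS1 (3.12, SE 0.35), a matrix protein that activates latent TGF-beta, rose as well. TSC22D1, named outside the rule because it was the single target gene that fell, was at 46.8 FPKM in naive and 117 in primed lines on average.

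**Figure D4:**
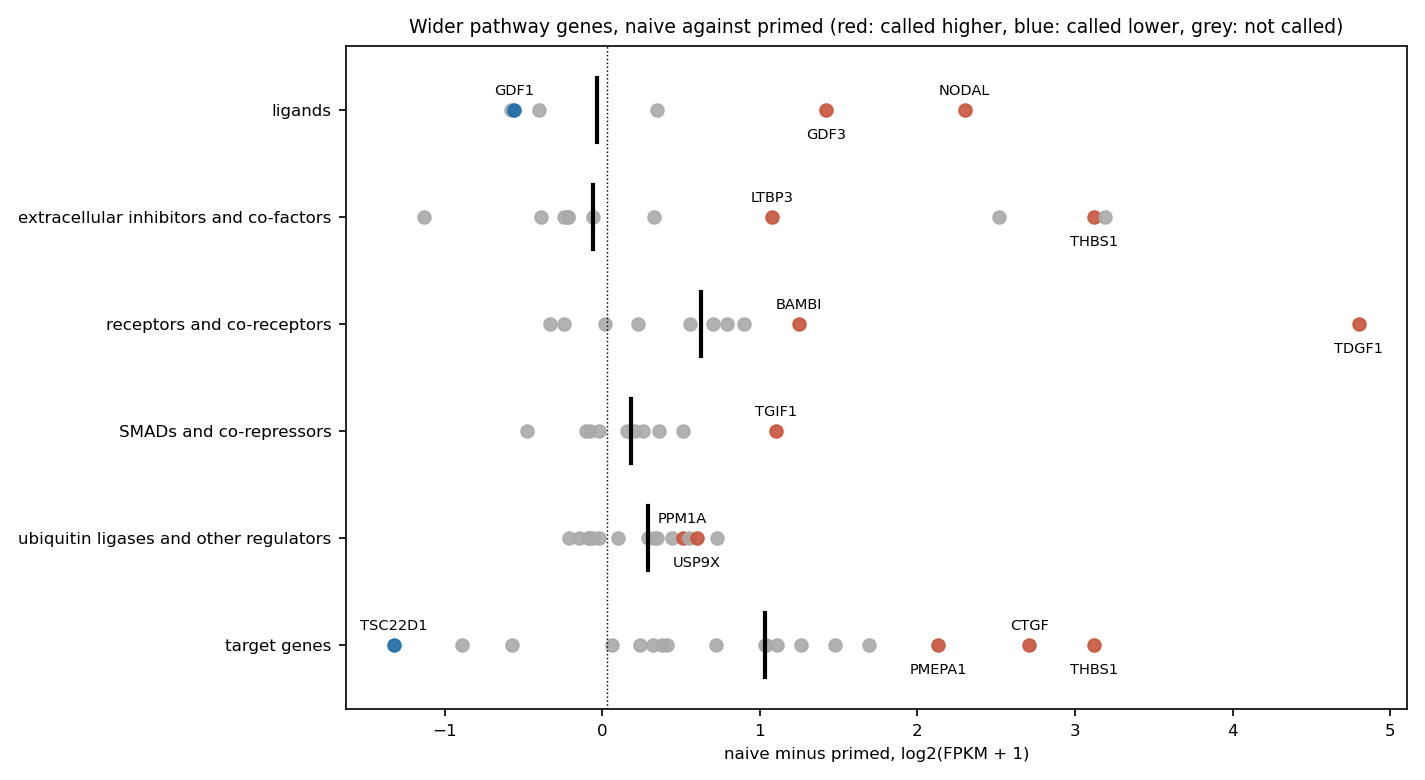
Naive minus primed log2 difference (horizontal axis, log2(FPKM + 1)) of tested genes of the wider pathway list, by class; points are genes, red called higher, blue called lower and grey not called, black bars are class medians and the dotted line is the median of all tested rows (0.03). The target class had the highest median, 1.03, with THBS1 at 3.12.

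Of the other ligands 2 of 6 rose and 1 fell. NODAL, the ligand of the early embryo that shares ACVR1B and ACVR2B with activin, rose by 2.30 (SE 0.38, adjusted p = 0.0206). The tables hold 2 rows for NODAL at one locus, a longer row and a 471 bp row with the higher mean used here, and the longer one gave 2.26. GDF3 rose by 1.42, on a level listed at 0 in primed 1, and GDF1, which may share reads with an overlapping gene, fell by 0.56. The call of GDF3 was lost in 10 of 18 alternative settings and that of GDF1 in 10 of 19. Among extracellular inhibitors and co-factors 2 of 11 rose: THBS1, again, and LTBP3 (1.08), which anchors latent TGF-beta in the matrix. The call of LTBP3 was lost in 8 of 19 alternative settings. The Nodal antagonists LEFTY2 (2.52, adjusted p = 0.061) and CER1 (3.19, adjusted p = 0.0787) were not called. Their naive libraries all lay above the primed ones, as in 18.9% of all tested rows. LEFTY2 was at 0.552 FPKM in primed 1 and 8.02 in primed 2, and without primed 2 its difference was 3.79 (adjusted p = 0.0156).

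Receptor and SMAD partners of the 10 genes gave few calls. Among 10 other receptors and co-receptors TDGF1, the Nodal co-receptor, rose by 4.80 and the decoy receptor BAMBI by 1.25, while TGFBR1 (-0.24, adjusted p = 0.227), TGFBR2 (0.79, adjusted p = 0.196), TGFBR3 (0.90, adjusted p = 0.0782), BMPR2 (0.56) and ACVR2A (-0.33, adjusted p = 0.308) were not called. TGFBR1, the type I receptor of TGF-beta, was at 29.1 ± 0.628 FPKM in female naive and at 45.0 ± 3.53 and 42.8 ± 2.60 in male naive and primed lines (SD, n = 2). Among 10 SMADs and co-repressors TGIF1, a co-repressor, rose by 1.10 (SE 0.14, adjusted p = 0.0114). SMAD4, the common partner of SMAD2 and SMAD3, was at 23.5 and 24.2 FPKM on average in naive and primed lines and was not called (-0.02, 95% interval -0.46 to 0.42), nor were TGIF2 (0.36), FOXH1 (0.51) and EP300 (0.21). Among 15 ubiquitin ligases and other regulators 2 rose by small amounts: the deubiquitinase USP9X (0.60, adjusted p = 0.0369) and PPM1A, a phosphatase (0.51, adjusted p = 0.047). These calls were lost in 13 and 14 of 19 alternative settings. SMURF1 (0.55) and NEDD4L (0.73), ligases that act on pathway receptors and SMADs, were not called.

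The count of 14 called genes in the wider list depended on single libraries. It was 7 without male naive 1, 5 without male naive 2, 8 without female naive 1, 6 without female naive 2, 2 without primed 1 and 13 without primed 2. The share of all tested rows that were called was 1.94%, 1.91%, 3.38%, 2.23%, 1.29% and 7.9% in the same order.

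Profiles most like those of the 3 genes with the smallest p were sought among 9567 rows that carried a symbol and averaged at least 5 FPKM in some group, by Pearson's r of log2(FPKM + 1) over the 6 libraries. PPM1A (0.9975), PXK (0.9969) and FAM46B (0.9953) were most like SKIL. ARHGAP36 (0.9979) and LRRC16A (0.9969) were among those most like SMAD7, and NASP, DOPEY1 (both 0.9977) and ALG9 (0.9968) most like FST. With 6 libraries in 3 groups, such values mark a shared pattern of group means and no more. Likeness covers shape and not size: PPM1A ran from 17.7 to 27.8 FPKM over the libraries, whereas SKIL ran from 2.81 to 15.8.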

How the data were processed

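RNA of 6 libraries was sequenced on Illumina machines per the labels' protocols. Per the submitters' processing notes the aligner was TopHat 1.3.0. Of the quantifier's version, annotation, genome build and strand setting each is not given in the sources used here. The authors deposited FPKM per gene row, with a lower and an upper bound, in the layout of Cufflinks tracking tables per the file headers. Bounds lie 2 SD from the value, so the effective fragments are the squared ratio of FPKM to its SD. They cover counting error only.

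Rows at 1 FPKM or more in 2 or more libraries with no failed status (40 rows left out) were fitted with limma 3.58.1 in R 4.3.3 on log2(FPKM + 1), with a mean per group and a trended prior. Tests were two-sided with Benjamini-Hochberg adjustment over all 13685 rows, at 0.05. The script was tested on simulated data. Differences on this scale understate changes of low genes. Where a symbol had several rows, the row with the highest mean was used. Besides the 10 genes, the text names up to 4 genes with the smallest p per class of the wider list, 8 fixed partners and the 3 profiles most like each of 3 genes. The genes and lists were chosen with earlier results of these data known. A planned promoter motif description was not made, since no sequence was used here. Alternatives covered pseudocount, filter, scaling, rows, spread, sex, pairing and left-out libraries. They were applied to the wider list after the data were seen. Of the genes this rule names, 2 are not reported here, although counts and medians of the wider list include all tested genes.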

Additional observations from a re-analysis of the deposited data

Results flagged for a closer look

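FST was lower in female than in male naive lines, and both groups were compared with the same male primed lines. The female minus male naive difference was -1.8 on the log2 scale (limma adjusted p = 0.00584). Both female naive libraries (75.4 and 69.7 FPKM) lay below both male naive ones (253 and 256 FPKM). Neural (3 of 6) and fibroblast (2 of 12) markers were also called lower in female naive lines, beside 2.55% of all tested rows. Other fibroblast markers, such as THY1 (1.68) and COL1A1 (1.34), went the other way and were not called. The part of such cells was not tested. No primed female line was analysed here, so sex and line cannot be told apart.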

How the results depend on the processing

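Alternatives were counted for 16 results of the 10 genes: all in naive against primed lines and, in the other comparisons, only those called. Of their 307 values 256 kept direction and side of the threshold, 35 lost the call and 1 gained it. The other 15 turned sign, all of these for genes not called. Gains outside these results, such as that of SMAD7 between the naive groups, are not in the counts. Of 508 values of the named wider-list genes in naive against primed lines, 79 lost the call, 2 gained it and 2 turned sign. INHBA turned to 0.10 without male naive 1, 0.11 without female naive 2 and 0.39 without primed 2 (range with 1 library left out -0.48 to 0.39), and to 0.02 with both male naive libraries left out. ACVR1B turned to -0.03 with median-of-ratios and -0.10 with upper-quartile scaling, -0.02 with quantile normalization, -0.004 with equal sums after rows under 300 bp were left out, -0.03 without male naive 1, -0.07 without female naive 1 and -0.11 without primed 2 (range -0.11 to 0.12). ACVR2B turned to 0.21 without primed 1 (range -0.37 to 0.21), SMAD2 to -0.05 and -0.03 with upper-quartile and quantile scaling, TGFBI to 0.43 without primed 2 (range -1.92 to 0.43), and SMAD4 to 0.01 without male naive 2 and 0.26 without primed 1 (range -0.29 to 0.26). With sex ignored, the naive against primed calls of SMAD7 (limma adjusted p = 0.134) and FST (adjusted p = 0.552) were lost. The estimates stayed at 1.64 and -0.67, while the SE rose from 0.25 to 0.52 and from 0.14 to 0.61. That fit has 1 mean for all naive lines, so the difference between the naive groups counts as residual spread. The causes of the other changes were not tested.

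Called members in naive against primed lines numbered 3, or 1 with sex ignored, beside 11.3% and 1.83% of all tested rows. A fit without 1 library leaves a group with a single library. Such fits could lose member calls, and most of them called fewer of all tested rows too. The other settings gave 1 member for male naive against primed lines (reported 1), beside 2.12% to 6.93% of all rows. They gave 3 to 4 for female naive against primed lines (reported 4), beside 4.41% to 13.8% of all rows. Female against male naive lines gave 1 (3.31% of all rows). That count was 2 with a pseudocount of 5 (3.6% of rows) or 1 FPKM in all libraries (4.02%). Wider-list calls, in the same order, were 14 (2 to 13 with 1 library left out, 9 with no filter, 3 with sex ignored), 7 (0 to 7, 3 with no filter, 4 in the compared groups alone), 14 (4 to 15) and 1 (0 to 4; 0 with a pseudocount of 0.1, 3 with 5, 2 with 1 FPKM in all libraries, 2 with quantile normalization, 4 in the compared groups alone). Calls over all rows in naive against primed lines ran from 177 without primed 1 to 1642.

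Same-numbered libraries share only a number: their deviations correlated at -0.06, -0.05 and -0.263. With the replicate block 2, 1, 3 and 1 members and, for female naive against primed lines, 9 wider-list genes were called, and all-row calls in naive against primed lines were 812. Crossing the numbers for female naive against primed lines gave 4 members, as uncrossed in the same fit.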

Other observations

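SMADs of the BMP branch, which transduces a related family of ligands, gave no call in naive against primed lines. SMAD1 was at 13.3 and 11.0 FPKM on average in naive and primed lines (log2 difference 0.26, limma adjusted p = 0.314), SMAD5 at 12.0 and 12.7 (-0.08) and the inhibitory SMAD6 at 1.42 and 2.28 (-0.48, adjusted p = 0.31). These genes were chosen after their values were seen. Within the feedback pair, SMAD7 was at 0.659 and 0.893 of the FPKM of SKIL in female naive libraries, at 0.341 and 0.282 in male naive and at 0.418 and 0.566 in primed ones.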
